A study of Mus musculus with 4 samples.

Results

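Transcripts of 10 marker genes of resident alveolar macrophages were followed among 49315 genes counted in sorted mouse lung ILC2s. The 10 members are *Siglecf*, *Marco*, *Fabp4*, *Fabp1*, *Pparg*, *Mrc1*, *Itgax*, *Krt79*, *Ear2* and *Plet1*. The members were chosen by name as genes of resident alveolar macrophages. Symbols in the table of counts gave 9 of the 10, and *Siglecf*, which is listed there under another symbol, was matched by its gene ID. ILC2s are lymphocytes without antigen receptors, and here lung cells were first enriched for ILCs with a kit that removes other cells, and then sorted by 3 surface proteins, Thy1.2, ICOS and T1/ST2, and by the absence of lineage markers. The sorted cells then grew in medium with IL-2 until RNA was taken. The lineage antibodies were against CD3, CD11b, B220, Ly76, Ly6G and Ly6C, and the product of *Itgax*, CD11c, is not among these. A high purity of the sorted cells is stated in the study's methods. WT and *Hps1*-/- mice received PBS (groups PBS-WT and PBS-HPS1) or bleomycin (groups BLEO-WT and BLEO-HPS1), and each of the 4 groups has 1 library. All mice were on a C57BL/6 background. *Hps1*-/- mice carry a null mutation of *Hps1* and model Hermansky-Pudlak syndrome, and bleomycin is a drug that injures the lung and leads to fibrosis. The age of the mice, the route and time of bleomycin and the number of mice behind each library are not given in the sources used here for the sequenced cells. The study describes intraperitoneal bleomycin, in mice of 10 weeks, and intratracheal bleomycin, and does not tie either to the sequenced cells. The libraries were made from 22405, 38873, 84166 and 128647 cells and held 72513619, 77703133, 87638154 and 77428740 reads, in the order PBS-WT, PBS-HPS1 and then BLEO-WT, BLEO-HPS1, which holds wherever 4 values follow each other. *Hps1* itself had 2989, 1647, 3795 and 1347 reads and was lower in both *Hps1*-/- libraries, but its transcript was still counted there, at 16.6 CPM in PBS-HPS1 and 21.3 in BLEO-HPS1.

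Alveolar macrophages live in the airspace, where they clear surfactant and inhaled particles. They are seeded around birth from fetal monocytes and maintain themselves, and GM-CSF and TGF-beta keep them in their resident state through the nuclear receptor PPAR-gamma. After lung injury, monocytes enter and give rise to macrophages that at first lack several of the resident genes. Interstitial macrophages are a separate population in the lung tissue and are known for complement C1q.

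Genes of macrophages were counted beside those of ILC2s and of the sort markers. Levels are given as CPM, counts scaled to a common library size with TMM factors, and levels of different genes are compared as CPM per kb of exon. *Lyz2*, which encodes lysozyme and is shared by macrophages, monocytes and neutrophils, was at 7164 CPM per kb in PBS-WT and 4623 in PBS-HPS1, against 9988 (BLEO-WT) and 9380 (BLEO-HPS1) with bleomycin. Among the genes of the sort markers, *Thy1* was at 102, 68.7, 74.7 and 184 CPM per kb, *Icos* at 23.3, 22.6, 15.0 and 9.35, and *Il1rl1*, which encodes T1/ST2, at 5.94, 5.79, 5.41 and 3.45. *Fcgr1*, an Fc receptor gene shared by macrophages, was below *Thy1* and above *Il1rl1* in every library, at 24.2, 12.9, 44.2 and 57.0 CPM per kb. It was above *Icos* in every library but PBS-HPS1. Every member was counted in every library, with the fewest reads, 83, for *Fabp1* in BLEO-HPS1. That is above the smallest level that 3 reads can show, between 0.0303 and 0.0475 CPM. All 10 members were among the 14840 genes that reached a CPM of 1 in any library and were compared. In bulk RNA, fewer cells of a type and less RNA per cell cannot be told apart.

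The highest member per length was *Ear2*, which encodes an eosinophil-associated ribonuclease, at 1002 CPM per kb in PBS-WT and 719.7 in PBS-HPS1, against 581 (BLEO-WT) and 369 (BLEO-HPS1) with bleomycin. In both PBS libraries it was followed by *Plet1*, *Itgax* and *Mrc1*, then by *Fabp1*, *Siglecf*, *Krt79*, *Marco*, *Pparg* and *Fabp4*, in the same order. The largest change of place with bleomycin was that of *Fabp1*, from place 5 in both PBS libraries to place 10 in both bleomycin libraries. The lowest member in the PBS libraries, *Fabp4*, was at 5.89 CPM per kb in PBS-WT and 4.20 in PBS-HPS1. The exon length used for *Fabp4*, 4489 bases, is that of its whole gene. Its level per length and its place in this order are therefore uncertain. Summed over the 10 members, the level was 3112 CPM in PBS-WT and 2659.6 in PBS-HPS1, against 2207 (BLEO-WT) and 1536 (BLEO-HPS1) with bleomycin. *Ear2*, *Mrc1* and *Itgax* made up most of this sum, so that it moved less than most single members did.

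**Figure D1:**
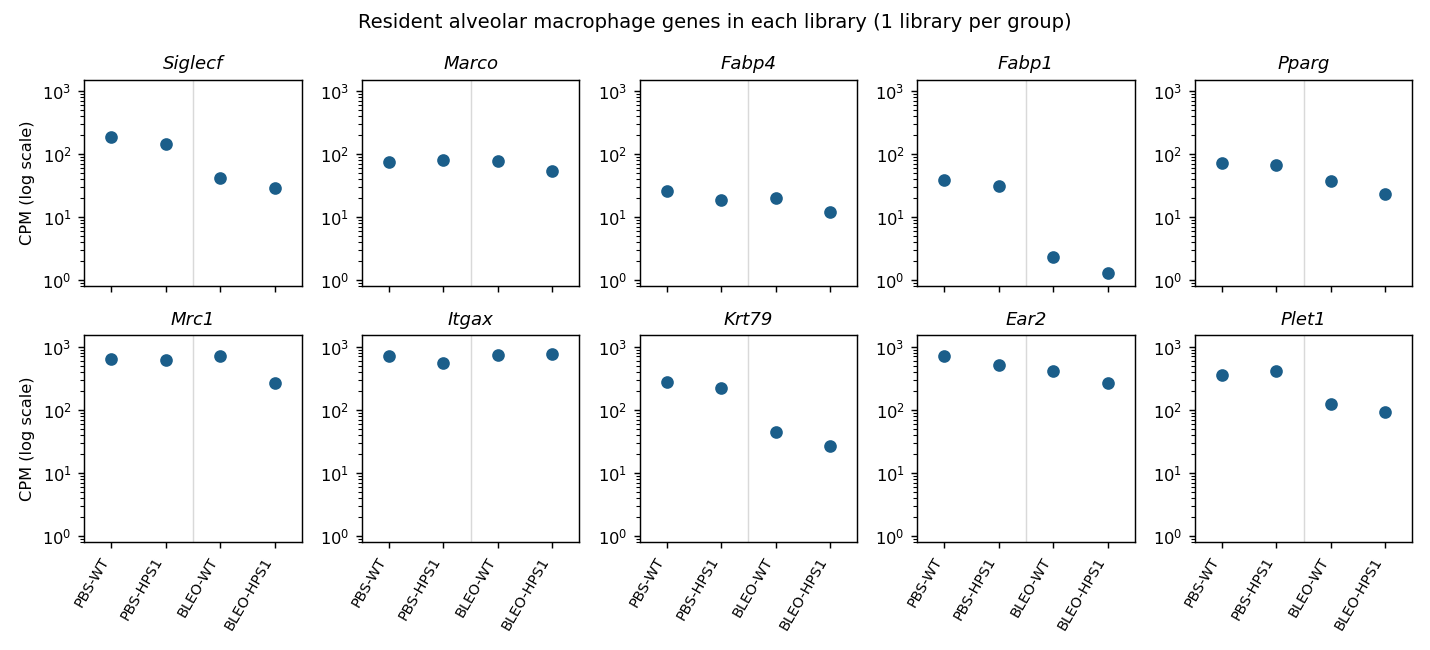
CPM (log axis) of each member in the 4 libraries, 1 point per library, with the PBS libraries left of the grey line and the bleomycin libraries right of it. *Fabp1* falls from 38.5 and 30.9 CPM to 2.33 and 1.31, while *Itgax* lies between 545 and 766.5 CPM in all 4.

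Bleomycin was compared with PBS within each genotype to ask how the alveolar macrophage genes stood in ILC2 libraries of injured lungs. With 1 library per group no difference has a replicate check, so ratios are of log2 CPM, 2-fold marks a member as called, and the 95% exact intervals cover the counting error of the reads only. In WT mice 4 of the 10 members were at least 2-fold lower with bleomycin and 0 at least 2-fold higher. Of all genes compared 8.22% were at least 2-fold lower and 5.28% at least 2-fold higher. In *Hps1*-/- mice 6 members were at least 2-fold lower and 0 higher, in a comparison where 19.6% of all genes were at least 2-fold lower and 26.2% higher. The median log2 ratio of the members was -0.88 in WT and -1.37 in *Hps1*-/- mice, and that of all genes was 0.09 and 0.25. With total counts only the median of all genes was -0.17 and -0.39 and that of the members -1.15 and -2.01. With these, 6 members in WT and 9 in *Hps1*-/- mice were at least 2-fold lower. Of all genes 12.9% were then lower and 3.24% higher by that much in WT mice, and 33.3% lower and 9.33% higher in *Hps1*-/- mice. At least 4-fold lower were 3 members in WT mice, against 1.82% of all genes, and 4 members in *Hps1*-/- mice, against 5.49%. *Fabp1*, *Krt79*, *Siglecf* and *Plet1* were at least 2-fold lower in both genotypes, as were 5.44% of all genes. The number of cells per library rose with bleomycin in both genotypes, and its part in these ratios cannot be told apart from that of the treatment.

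*Fabp1* (ENSMUSG00000054422, chromosome 6 from 71199827 to 71205023 of GRCm38, plus strand) encodes the liver fatty acid-binding protein, a carrier of fatty acids in the cytosol that is best known from liver and gut. It was at 38.5 CPM in PBS-WT and 30.9 in PBS-HPS1, against 2.33 (BLEO-WT) and 1.31 (BLEO-HPS1) with bleomycin. Both bleomycin libraries were far below both PBS libraries, 16.3-fold in WT and 23.1-fold in *Hps1*-/- mice, with log2 ratios of -4.03 (95% exact interval -4.27 to -3.83) and -4.53 (-4.89 to -4.24). *Krt79* (ENSMUSG00000061397, chromosome 15 from 101929332 to 101940324, minus strand) encodes a type II keratin, an intermediate filament protein. Its levels were 274, 218, 44.0 and 26.3 CPM in the same order. The bleomycin libraries were 6.23-fold and 8.29-fold lower than their PBS libraries, log2 ratios of -2.64 (-2.69 to -2.59) and -3.05 (-3.13 to -2.98).

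*Siglecf* (ENSMUSG00000039013, chromosome 7 from 43351341 to 43359531, plus strand) encodes a sialic acid-binding receptor found on alveolar macrophages and eosinophils. It was at 186 CPM in PBS-WT and 146 in PBS-HPS1, against 41.6 (BLEO-WT) and 29.0 (BLEO-HPS1) with bleomycin. This put the bleomycin libraries at log2 ratios of -2.16 (-2.22 to -2.11) in WT and -2.33 (-2.40 to -2.26) in *Hps1*-/- mice. *Plet1* (ENSMUSG00000032068, chromosome 9 from 50494525 to 50505482, plus strand) encodes a surface protein first described on trophoblast. It was at 360.4, 413, 125 and 92.8 CPM, and unlike *Siglecf* it was higher in PBS-HPS1 than in PBS-WT. Its log2 ratio was -1.53 (-1.56 to -1.49) in WT and -2.15 (-2.19 to -2.11) in *Hps1*-/- mice. These 4 genes stayed at least 2-fold lower with bleomycin in both genotypes with DESeq2 size factors, with total counts only, with prior counts of 0.5 and 10 and after the loess correction for transcript GC content and length.

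*Pparg* (ENSMUSG00000000440, chromosome 6 from 115360951 to 115490399, plus strand) encodes PPAR-gamma, the nuclear receptor through which GM-CSF drives the maturation of these cells and their handling of lipid. Its levels were 72.4 CPM in PBS-WT and 67.3 in PBS-HPS1, against 36.8 (BLEO-WT) and 23.5 (BLEO-HPS1) with bleomycin. It was just short of 2-fold lower in WT mice, with a log2 ratio of -0.97 (-1.04 to -0.91), and past it in *Hps1*-/- mice, at -1.51 (-1.60 to -1.43). In WT mice it was at -1.24 with total counts only and at -0.77 after the GC and length correction. *Fabp4* (ENSMUSG00000062515, chromosome 3 from 10204088 to 10208576, minus strand) encodes the fatty acid-binding protein of fat cells and macrophages and is a known target of PPAR-gamma. It was at 26.4, 18.9, 19.96 and 11.9 CPM. Its log2 ratio with bleomycin was -0.40 in WT and -0.66 in *Hps1*-/- mice, neither past 2-fold. After the GC and length correction both had the opposite sign, 0.29 and 0.95, and with total counts only the ratio in *Hps1*-/- mice passed 2-fold, at -1.31. *Fabp4* is rich in A and T, with a mean transcript GC content of 41.5% against a median of 50.8% over the genes compared. This mean is over 2 transcripts, whose exons together cover the whole gene of 4489 bases. The corrected ratios of *Fabp4* rest on that annotation.

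*Ear2* (ENSMUSG00000072596, chromosome 14 from 44102654 to 44103534, plus strand) was at 720.3 CPM in PBS-WT and 517 in PBS-HPS1, against 418 (BLEO-WT) and 265 (BLEO-HPS1) with bleomycin. Its log2 ratios with bleomycin were -0.79 (-0.81 to -0.77) in WT and -0.96 (-0.99 to -0.94) in *Hps1*-/- mice, under 2-fold in both. In *Hps1*-/- mice it passed 2-fold after the GC and length correction, at -1.02, and with total counts only it passed 2-fold in both genotypes, at -1.05 and -1.61. *Ear1*, a neighbouring gene of the same family that is listed among other genes of alveolar macrophages, was at 214, 165, 26.7 and 14.8 CPM, log2 ratios of -3.00 and -3.47. The transcripts of *Ear2* and *Ear1* were 96.4% identical over 713 bases, and 41.5% of the 50-base stretches of *Ear2* also occur in transcripts of other genes. How the authors' counting split reads between such copies is not given in the sources used here, so the values of both genes are uncertain. Of the other members, *Itgax* shared 8.02% of its stretches with *Itgad*, *Plet1* 0.790% and *Siglecf* 0.206% with other genes, and the remaining 6 members shared 0.

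*Itgax* (ENSMUSG00000030789, chromosome 7 from 128129547 to 128150657, plus strand) encodes CD11c, an integrin chain of alveolar macrophages that dendritic cells carry as well. It was at 713 CPM in PBS-WT and 545 in PBS-HPS1, against 741 (BLEO-WT) and 766.5 (BLEO-HPS1) with bleomycin. With TMM scaling it was lowest in PBS-HPS1 and the other 9 members in BLEO-HPS1, as were 37.4% of all genes compared. This depends on the scaling, since with total counts only *Itgax* was lowest in BLEO-HPS1 as well, and on the correction, which put *Mrc1* and *Fabp4* in BLEO-HPS1 above PBS-HPS1. The log2 ratio with bleomycin was 0.06 in WT and 0.49 in *Hps1*-/- mice, and with total counts only it was -0.21 and -0.15. *Marco* (ENSMUSG00000026390, chromosome 1 from 120474538 to 120505024, minus strand) encodes a scavenger receptor that binds bacteria and particles. Its levels were 73.5, 81.6, 76.3 and 53.8 CPM, with the lowest in BLEO-HPS1. The log2 ratio was 0.05 in WT mice, where the counting interval included 0 and the ratio with total counts only was -0.21, and -0.60 (-0.66 to -0.54) in *Hps1*-/- mice, where it was -1.24 with total counts only. After the correction it was -0.18 and -1.43.

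*Mrc1* (ENSMUSG00000026712, chromosome 2 from 14229392 to 14332057, plus strand) encodes the mannose receptor CD206, which alveolar and many interstitial macrophages carry. It was at 647 CPM in PBS-WT and 621 in PBS-HPS1, against 702 (BLEO-WT) and 266 (BLEO-HPS1) with bleomycin. A single library, BLEO-HPS1, was low, and the other 3 lay close together. The log2 ratio with bleomycin was 0.12 (0.10 to 0.13) in WT mice, -0.15 with total counts only, and -1.23 (-1.25 to -1.20) in *Hps1*-/- mice, -1.87 with total counts only. *Mrc1* has the longest exons of the members, 6371 bases, and the lowest GC content, 39.6%. After the GC and length correction the log2 ratios were 1.06 in WT and 0.81 in *Hps1*-/- mice, so that in *Hps1*-/- mice the direction turned.

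**Figure D2:**
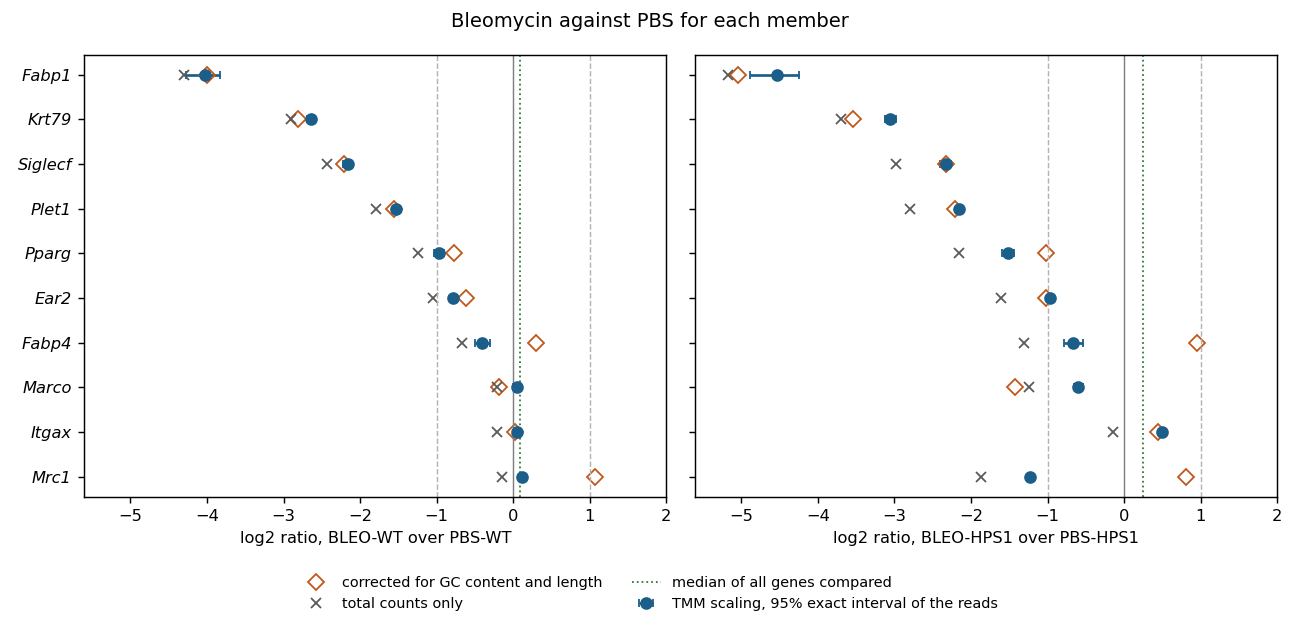
Log2 ratio of bleomycin to PBS for each member in WT (left) and *Hps1*-/- mice (right), with filled points for TMM scaling and their 95% exact intervals, diamonds after the GC and length correction, crosses for total counts only, dashed lines at 2-fold and a dotted line at the median of all genes. *Fabp1*, *Krt79*, *Siglecf* and *Plet1* lie below the lower dashed line under each setting drawn, while in *Hps1*-/- mice *Mrc1* and *Fabp4* change sign after the correction and *Itgax* with total counts only.

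The *Hps1*-/- libraries were compared with the WT libraries under the same treatment to ask whether the genotype went with these genes. Each library enters 2 of the 4 comparisons, so the comparisons share libraries. With PBS 0 of the 10 members were at least 2-fold lower or higher in *Hps1*-/- mice, against 3.11% and 2.16% of all genes. The members' log2 ratios ran from -0.49 for *Fabp4* to 0.20 for *Plet1*, with a median of -0.32 where that of all genes was -0.19, and with total counts only *Pparg* and *Mrc1* had the opposite sign, 0.14 and 0.19. With bleomycin 1 member, *Mrc1*, was at least 2-fold lower in *Hps1*-/- mice, at a log2 ratio of -1.40 (-1.43 to -1.38), and 0 were higher, against 10.3% and 6.72% of all genes. After the correction the ratio of *Mrc1* was -0.54, and *Fabp1* and *Krt79* passed 2-fold at -1.14 and -1.02. The ratios of the members ran from that of *Mrc1* to 0.05 for *Itgax*, -0.08 with total counts only, and their median was -0.65 against -0.04 for all genes. After the correction 4.27% of all genes were at least 2-fold lower and 5.63% higher in this comparison.

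Bleomycin over PBS, in log2, was lower in *Hps1*-/- than in WT mice for every member but *Itgax*, by a median difference of -0.46, while over all genes the median difference was 0.15. These differences between genotypes were not tested. The largest was that of *Mrc1*, -1.34, which was -0.25 after the GC and length correction. *Marco* differed by -0.65, *Plet1* by -0.63, *Pparg* by -0.54, *Fabp1* by -0.50 and *Krt79* by -0.41. For *Fabp4*, *Ear2* and *Siglecf* the difference was -0.26, -0.18 and -0.17, and for *Itgax* it was 0.44. After the correction *Fabp4* had the opposite sign, 0.66, and *Marco* had the largest difference, -1.25.

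Of 18 other genes of alveolar macrophages 17 were compared, and 7 were at least 2-fold lower with bleomycin in WT and 9 in *Hps1*-/- mice, 6 of them in both, with 1 higher in each genotype. Of all genes 8.22% were lower and 5.28% higher in WT mice, 19.6% lower and 26.2% higher in *Hps1*-/- mice, and 5.44% lower in both. By total counts only, 8 and 12 of the 17 were lower, against 12.9% and 33.3% of all genes. The median log2 ratio of the 17 genes was -0.52 in WT and -1.02 in *Hps1*-/- mice. After the GC and length correction it was -0.23 and -0.62, and with total counts only -0.78 and -1.66. *Chil3*, which encodes the chitinase-like protein Ym1, was the most abundant, at 3926 CPM in PBS-WT and 3567 in PBS-HPS1, against 3341 (BLEO-WT) and 1758 (BLEO-HPS1) with bleomycin. *Atp6v0d2*, a subunit of the lysosomal proton pump, was at 318, 334, 184 and 59.1 CPM, and its log2 ratio with bleomycin was -0.79 in WT and -2.50 in *Hps1*-/- mice. After the GC and length correction it was -0.17 and -1.24, and with total counts only it passed 2-fold in WT mice, at -1.05. The lipase gene *Lpl* was at 957, 448, 378 and 176 CPM and, unlike the members, was at least 2-fold lower in *Hps1*-/- mice already with PBS, at a log2 ratio of -1.09, though not with total counts only, at -0.85. *Cd9*, which encodes a tetraspanin, was within 2-fold in all 4 comparisons, but at -1.05 with bleomycin in *Hps1*-/- mice with total counts only. The gene that was higher with bleomycin was *Fabp5*, the epidermal fatty acid-binding protein, at 71.6, 43.0, 252 and 221 CPM, the opposite of *Fabp1*.

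Of 15 genes of GM-CSF, TGF-beta and the transcription factors of these cells, 0 were at least 2-fold lower and 1 higher with bleomycin in WT mice, and 2 lower and 4 higher in *Hps1*-/- mice. Of all genes 8.22% were lower and 5.28% higher in WT mice, and 19.6% lower and 26.2% higher in *Hps1*-/- mice. With total counts only, and also after the GC and length correction, 0 were higher in either genotype and 3 were lower in *Hps1*-/- mice. Of all genes 33.3% and 9.03% were lower there under these settings. The median log2 ratio of the 15 genes was 0.32 in WT and 0.16 in *Hps1*-/- mice, where it was -0.48 with total counts only. *Csf2rb*, the signalling chain of the GM-CSF receptor, was at 453, 380.2, 585 and 471 CPM, and *Cebpa*, a myeloid transcription factor, at 354, 294, 599 and 591. The TGF-beta receptor gene *Tgfbr1* was lower in BLEO-HPS1, at 54.1 CPM against 175 in BLEO-WT and 170.2 in PBS-HPS1. After the correction its log2 ratio with bleomycin in *Hps1*-/- mice was under 2-fold, -0.94. Between genotypes with bleomycin it was still past 2-fold, at -1.25. *Egr2*, an early-response transcription factor, had a log2 ratio with bleomycin of 1.13 in WT and -0.62 in *Hps1*-/- mice. Which of these passed 2-fold depends on the setting, as the ratios were 0.94 and -1.13 after the correction and 0.86 and -1.26 with total counts only. Between genotypes with bleomycin the log2 ratio of *Egr2* was -1.37, -1.67 after the correction and -1.50 with total counts only. *Cebpb* and *Bhlhe40* were within 2-fold in all 4 comparisons, but *Cebpb* was at -1.01 between genotypes with bleomycin after the correction. *Csf2*, which encodes GM-CSF itself and was named after its values were seen, was low in every library, between 1.63 CPM in BLEO-HPS1 and 3.30 in PBS-HPS1.

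Of 15 genes of surfactant lipid handling, 2 were at least 2-fold lower and 4 higher with bleomycin in WT mice, and 4 lower and 4 higher in *Hps1*-/- mice. Of all genes 8.22% were lower and 5.28% higher in WT mice, and 19.6% lower and 26.2% higher in *Hps1*-/- mice. *Lpl*, *Fabp5* and *Cidec*, the last named after its values were seen, are also among the other alveolar macrophage genes. The 2 lower in WT mice were *Lpl* and *Cidec*. The medians of the 15 genes were 0.51 and 0.47, the latter -0.18 with total counts only. After the correction 2 were lower and 6 higher in *Hps1*-/- mice, against 9.03% and 17.3% of all genes. The largest increase in this list was that of *Apoe*, the lipid carrier apolipoprotein E, from 1029 to 12175 CPM in WT and from 548 to 13689 in *Hps1*-/- mice. Its log2 ratios were 3.56 and 4.64, the latter 3.52 after the GC and length correction. *Npc2*, a cholesterol-binding protein of the lysosome, was at 606, 399.5, 1082 and 1317 CPM, and *Plin2*, which coats lipid droplets, at 614, 545.5, 1126 and 917. Of 13 scavenger and phagocytic receptors, 0 were at least 2-fold lower and 6 higher in WT mice, and 3 lower and 6 higher in *Hps1*-/- mice. In *Hps1*-/- mice the correction gave 0 lower and 8 higher, against 9.03% and 17.3% of all genes. Total counts only gave 4 lower and 3 higher, against 33.3% and 9.33%. *Stab1*, an endocytic receptor, was at 77.4, 105, 551 and 578 CPM and *Fcgr2b*, an inhibitory Fc receptor, at 245, 204, 879 and 633. *Cd163*, a receptor for haemoglobin bound to haptoglobin, was at 33.4, 24.8, 134 and 27.4 CPM. *Axl* and *Sirpa* stayed within 2-fold in all 4 comparisons. *Clec7a*, the beta-glucan receptor, was at 636, 431, 410.1 and 208 CPM, and in *Hps1*-/- mice its log2 ratio with bleomycin turned from -1.05 to 0.18 with the correction.

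Genes shared by macrophages had a median log2 ratio with bleomycin of 0.84 in WT and 1.32 in *Hps1*-/- mice. That of the members was -0.88 and -1.37. Of 10 genes shared by macrophages, 4 were at least 2-fold higher with bleomycin in WT and 8 in *Hps1*-/- mice, and 0 and 1 were lower. Of all genes 5.28% and 26.2% were higher, and 8.22% and 19.6% lower. At least 2-fold higher with total counts only were 2 in each genotype, against 3.24% and 9.33% of all genes. After the GC and length correction 2 were higher in WT and 5 in *Hps1*-/- mice, against 5.12% and 17.3% of all genes. Summed over the 10 shared genes, the level was 13849 CPM in PBS-WT and 9212 in PBS-HPS1, against 22988 (BLEO-WT) and 20162 (BLEO-HPS1) with bleomycin, most of it from *Lyz2*. *Ctss*, a lysosomal protease, was at 1814, 1189, 4412 and 2588 CPM, and *Csf1r*, the receptor of the main macrophage growth factor, at 642, 379, 1347 and 1603. *Cd14*, a receptor for bacterial lipopolysaccharide, was at 519, 516, 1913 and 1431 CPM and *Fcgr1*, a high-affinity Fc receptor, at 62.7, 33.3, 114 and 148. Within a library, where scaling between libraries plays no part, the summed CPM of the 10 members over that of these 10 genes was 0.225 in PBS-WT and 0.289 in PBS-HPS1, against 0.0960 (BLEO-WT) and 0.0762 (BLEO-HPS1) with bleomycin. Both bleomycin libraries were thus below both PBS libraries, and the ratio was higher in PBS-HPS1 than in PBS-WT. Before the GC and length correction all 10 members, *Itgax* among them, were lower relative to these genes in each bleomycin library than in the PBS library of the same genotype. After it *Mrc1* was at 1.06 in WT mice, above the median of 0.78 of the shared genes. Per 1000 CPM of the shared genes *Itgax* was at 51.5, 59.1, 32.2 and 38.0 CPM, *Mrc1* at 46.7, 67.5, 30.5 and 13.2, and *Fabp1* at 2.78, 3.36, 0.102 and 0.0652.

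Of 13 genes of monocytes and interstitial macrophages, 8 were at least 2-fold higher with bleomycin in WT and 9 in *Hps1*-/- mice, and 2 and 0 were lower. Of all genes 5.28% and 26.2% were higher. Scaled by total counts only, 7 and 4 of the 13 were higher, against 3.24% and 9.33% of all genes. The summed level of the 13 genes was 1579, 845, 5023 and 6142 CPM. The complement genes *C1qa*, *C1qb* and *C1qc* led the increase, with log2 ratios of 3.28, 3.60 and 3.41 in WT and 4.804, 5.06 and 4.75 in *Hps1*-/- mice. After the correction the latter were 3.805, 4.13 and 3.84. *C1qa* was the most abundant of the list in both bleomycin libraries. The monocyte receptor gene *Ccr2* was the most abundant in both PBS libraries, at 332 CPM in PBS-WT and 144 in PBS-HPS1. The lineage antibodies included ones against CD11b and Ly6C, which monocytes carry. The part of these cells in the ratios of the members was not tested.

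**Figure D3:**
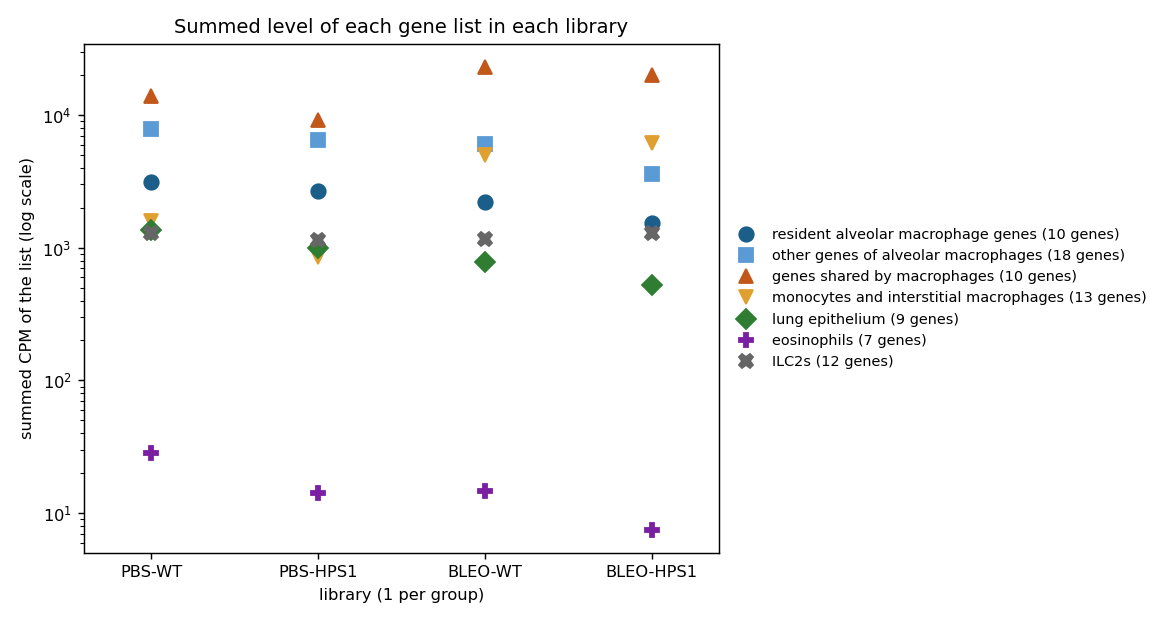
Summed CPM (log axis) of 7 of the gene lists in each library, 1 point per list and library. The members and the other alveolar macrophage genes are lowest in BLEO-HPS1, at 1536 and 3579.6 CPM. So are the genes of lung epithelium and of eosinophils, at 520.3 and 7.50 CPM. The genes of monocytes and interstitial macrophages are highest in BLEO-HPS1, at 6142 CPM.

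Eosinophils carry *Siglecf* and *Ear2* as well, and CD11b was among the targets of the lineage antibodies of the sort. The summed CPM of 7 eosinophil genes was 28.5, 14.2, 14.8 and 7.50, led by *Alox15*, which some macrophages also express. The granule genes *Prg3* and *Epx*, named after their values were seen, had 11 and 7 reads in PBS-WT, 7 and 9 in PBS-HPS1, 0 and 1 in BLEO-WT and 1 and 2 in BLEO-HPS1, under the floor of 3 reads in both bleomycin libraries. Of the 5 eosinophil genes compared, 3 were at least 2-fold lower with bleomycin in WT and 2 in *Hps1*-/- mice, and 1 and 0 were higher. Of 8 genes of dendritic cells, which carry *Itgax*, 3 were at least 2-fold lower and 0 higher in WT mice and 1 lower and 1 higher in *Hps1*-/- mice, and their sum was 362, 359, 394 and 557 CPM, led by *Ccr7*. Lung epithelium also expresses *Plet1* and keratins. The sum of its 9 genes was 1355, 998, 776 and 520.3 CPM, led by the surfactant gene *Sftpc* at 816, 538, 343 and 185, and 3 were at least 2-fold lower in WT and 5 in *Hps1*-/- mice, with 0 higher. Of 8 endothelial genes, which matter here since vessels express *Fabp4*, 0 were lower, 1 was higher in WT and 2 in *Hps1*-/- mice, and the sum was 850.02, 792, 916 and 1190.3 CPM, led by *Pecam1* with PBS and *Vwf* with bleomycin. With total counts only 2 of the 8 were lower and 0 higher in each genotype. Of all genes 12.9% were then lower and 3.24% higher in WT mice, and 33.3% lower and 9.33% higher in *Hps1*-/- mice.

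None of the 17 other lists holds a member, but some of their genes are shared between lists. For the cell types that follow, the sort had antibodies against neutrophils (Ly6G), T cells (CD3) and B cells (B220). Of 9 neutrophil genes compared out of 10, 4 were at least 2-fold lower with bleomycin in WT and 1 in *Hps1*-/- mice, 0 and 2 were higher, and the sum was 1168, 259.9, 648 and 276 CPM, led by *S100a9*. All 9 were at least 2-fold lower in PBS-HPS1 than in PBS-WT, also with total counts only, against 3.11% and 2.02% of all genes. Between BLEO-HPS1 and BLEO-WT 5 were lower and 2 higher, against 10.3% and 6.72%. Of 8 genes of mast cells and basophils, 4 were lower with bleomycin in WT and 6 in *Hps1*-/- mice and 0 higher, with sums of 141, 127, 84.1 and 75.4 CPM, led by *Gata2* and in BLEO-HPS1 by *Kit*. For 8 fibroblast genes, 3 of which were higher in WT and 7 in *Hps1*-/- mice and 0 lower, the sum was 178, 318, 557 and 2727 CPM, led by collagen genes. Of 12 ILC2 genes 1 was lower and 0 higher in WT mice and 3 lower and 2 higher in *Hps1*-/- mice, and their sum, led by *Thy1* or *Tcf7*, was 1299.6, 1148, 1157 and 1298 CPM. The sum of 7 T cell genes was 644, 472, 564 and 1005 CPM, led by CD3 genes or *Cd4*, with 0 lower and 4 higher in *Hps1*-/- mice and 0 of either in WT mice. For 6 B cell genes, led by *Cd79a*, it was 90.5, 114, 100.1 and 289 CPM, with 0 lower and 3 higher in *Hps1*-/- mice and 0 of either in WT mice. For 5 genes of natural killer cells, led by *Prf1*, it was 71.95, 128, 37.9 and 88.4 CPM, with 3 lower in WT and 2 in *Hps1*-/- mice and 0 higher. The counts of these other cell types, here and in the paragraph before, are with TMM scaling. Of all genes 8.22% were lower and 5.28% higher in WT mice with that scaling, and 19.6% lower and 26.2% higher in *Hps1*-/- mice. Some counts change with the scaling. With total counts only 0 T cell genes were higher and 7 ILC2 genes lower in *Hps1*-/- mice, against 9.33% and 33.3% of all genes. The part of any of these cell types in the members' ratios was not tested.

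Genes outside the lists were searched for the pattern nearest to the median of the members, so the macrophage genes of the lists could not be among them. Likeness was the distance over the 4 libraries between log2 CPM centred on each gene's own mean, among genes with at least 10 CPM in their highest library. The nearest 10 were *Krr1*, *Ddx10*, *Cebpz*, *Nae1*, *Rbm27*, *Cfap97*, *Rmi1*, *Sept7*, *Mfap1a* and *Terf1*, at distances of 0.0570 to 0.0890 on the log2 scale. Of the members themselves *Pparg* was nearest to that median, at 0.188, and *Fabp1* farthest, at 3.16. *Krr1*, which acts in ribosome assembly, was at 41.9, 33.9, 22.1 and 13.0 CPM, with log2 ratios with bleomycin of -0.92 in WT and -1.38 in *Hps1*-/- mice. After the GC and length correction its ratios were -0.54 and -0.23, and those of *Rbm27* went from -0.81 and -1.34 to -0.02 and 0.62. Over the 10 genes the corrected ratios ran from -0.54 (*Krr1*) to -0.01 (*Nae1*) in WT mice. In *Hps1*-/- mice they ran from -0.36 (*Rmi1*) to 0.62 (*Rbm27*). The median of the members went from -0.88 and -1.37 to -0.70 and -1.23.

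Promoters were read for the 4 members that were at least 2-fold lower with bleomycin in both genotypes, as the 250 bases before the transcription start in RefSeq (GRCm38.p6), 5′ to 3′ on the strand of the gene. Of the 10 members 9 had an entry, with 11 starts in all, and *Fabp4* is named only. The letters searched for, on both strands, were GGAAGT, of the type bound by ETS factors such as PU.1, AGGTCA, the half-site of nuclear receptors such as PPAR-gamma, TATAAA, the TATA box, and TGACTCA, bound by AP-1. No motif contains another. Capitals mark each match, on either strand.
*Fabp1*, chr6:71199629-71199878, plus strand: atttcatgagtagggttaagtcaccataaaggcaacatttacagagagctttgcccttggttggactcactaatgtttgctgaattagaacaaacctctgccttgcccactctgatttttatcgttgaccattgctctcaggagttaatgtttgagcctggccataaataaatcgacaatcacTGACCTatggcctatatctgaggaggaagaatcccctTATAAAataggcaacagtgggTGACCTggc
*Krt79*, chr15:101940325-101940574, minus strand: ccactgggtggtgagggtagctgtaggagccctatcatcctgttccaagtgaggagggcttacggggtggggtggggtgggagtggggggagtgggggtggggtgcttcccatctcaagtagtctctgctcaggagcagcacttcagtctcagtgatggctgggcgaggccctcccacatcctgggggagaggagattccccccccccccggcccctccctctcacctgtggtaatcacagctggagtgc
*Plet1*, chr9:50494275-50494524, plus strand: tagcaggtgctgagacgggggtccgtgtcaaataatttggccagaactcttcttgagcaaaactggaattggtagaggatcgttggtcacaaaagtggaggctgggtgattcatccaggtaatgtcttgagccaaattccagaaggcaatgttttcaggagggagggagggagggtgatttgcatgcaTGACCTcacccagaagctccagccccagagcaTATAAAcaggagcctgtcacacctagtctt
*Siglecf*, chr7:43351091-43351340, plus strand: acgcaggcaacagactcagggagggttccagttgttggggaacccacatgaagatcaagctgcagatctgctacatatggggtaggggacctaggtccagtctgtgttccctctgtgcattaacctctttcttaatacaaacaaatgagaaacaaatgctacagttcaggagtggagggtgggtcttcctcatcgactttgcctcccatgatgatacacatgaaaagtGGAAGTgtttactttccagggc
*Fabp1* held AGGTCA 2 times, as TGACCT on this strand, and TATAAA 1 time, *Plet1* held both 1 time, *Siglecf* held GGAAGT 1 time and *Krt79* held none of the 4. Among the other members AGGTCA and TATAAA were found for *Pparg*, GGAAGT for *Itgax* and *Mrc1* and TGACTCA for *Itgax*. Over 32851 promoters of the same length, 19.7% held GGAAGT, 14% AGGTCA, 12.4% TATAAA and 4.46% TGACTCA. Counted by start, as these shares are, 3 of the 11 starts of members held GGAAGT, 4 AGGTCA, 3 TATAAA and 1 TGACTCA. Counted by gene, 3 of the 9 members with an entry held GGAAGT, 3 AGGTCA, 3 TATAAA and 1 TGACTCA. The 4 genes shown have no motif in common. The promoters of *Ear2* and *Ear1* held none of the 4 and were 97.6% identical over 250 bases. A match is a description of letters and not a site of binding.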

How the data were processed

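RNA-Seq of sorted and cultured mouse lung ILC2s was analysed in 4 libraries, 1 per group, with groups from the sample labels. The authors deposited counts, as whole numbers for each Ensembl gene and without normalization. The kit was SMARTER mRNA-Seq, in which cDNA is amplified, and the aligner, counting tool, genome build and treatment of multi-mapped reads are not given in the sources used here. From the counts, log2 CPM with a prior count of 2 was computed with TMM factors of 1.08, 1.27, 0.895 and 0.816 (edgeR 4.0.16, R 4.3.3), in the library order of the text. Intervals are exact Clopper-Pearson intervals at 95% (SciPy 1.17.1). Copies made by PCR are not independent molecules, so counting error is all that the intervals and the 3-read floor cover. Gene positions, exon lengths, GC contents and transcripts are those of GENCODE M21, which held 49056 of the 49315 gene IDs, promoters those of RefSeq. Identities were computed with edlib 1.3.9.post1.

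The members and lists were chosen with earlier results of these data known. Genes named are the members, from each list the 4 with the highest CPM and the 2 with the largest ratio among genes with at least 10 CPM, *Hps1*, the genes of the sort markers and the 10 genes nearest in pattern. From the lists of other cells the text names fewer, and a few genes outside the rule are named as chosen after their values were seen. *Siglecf* was matched by gene ID, as was 1 gene of the ILC2 list. Alternatives were DESeq2 size factors (1.42.0), total counts only, a prior count of 0.5 or of 10, all genes unfiltered, a minimum of 10 reads per library, a 4-fold threshold, sums without the most abundant member or without *Lyz2*, and a loess fit (span 0.3) that takes the trend with transcript GC and length out of the log2 ratios. An alternative with the 9 members matched by symbol was chosen after seeing the data. Scaling, ratios, correction and intervals were tested on simulated data. No p-value is given, since no group had a replicate. Other experiments of the study were not analysed here.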

Additional observations from a re-analysis of the deposited data

Results flagged for a closer look

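*Mrc1* was the 1 member whose bleomycin ratios had opposite signs in the genotypes with both counting intervals excluding 0. In log2, bleomycin over PBS was 0.12 in WT and -1.23 in *Hps1*-/- mice, a difference of -1.34, which was not tested, with 1 library per group. In reads, *Mrc1* had 50466 (WT) and 61531 (*Hps1*-/-) with PBS, and 55064 (WT) and 16779 (*Hps1*-/-) with bleomycin. With total counts only the ratios were -0.15 and -1.87, of the same sign. With the GC and length correction the ratios were 1.06 and 0.81, again of the same sign, and the difference was -0.25.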

How the results depend on the processing

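With total counts only the median log2 ratio of the members was -0.0767 between genotypes with PBS, -1.15 with bleomycin in WT, -2.01 in *Hps1*-/- mice and -0.78 between genotypes with bleomycin. The median of all genes was 0.05, -0.17, -0.39 and -0.17 in the same comparisons. The GC and length correction gave medians of -0.27, -0.70, -1.23 and -0.52 for the members, and DESeq2 size factors gave -0.29 between genotypes with PBS. The 9 members matched by symbol, an alternative chosen after seeing the data, gave -0.79 in WT and -1.23 in *Hps1*-/- mice. The median difference of the bleomycin ratio between genotypes was -0.83 with total counts only and -0.33 with the correction. With the correction 1 member, *Mrc1*, was at least 2-fold higher with bleomycin in WT mice (5.12% of all genes), its ratio in *Hps1*-/- mice was 0.81 instead of a decrease, and 2 members were at least 2-fold lower between genotypes with bleomycin (4.27% of all genes), where the 4-fold threshold left 0. Summed over the genes shared by macrophages, the ratio of the members was 0.173, 0.2296, 0.0638 and 0.0382 without *Itgax*, and without *Lyz2* 0.704, 0.84995, 0.224 and 0.196, in the library order of the text. The cause of these shifts was not tested. Of the 11 ratios of single members past 2-fold, 11 were still past it with DESeq2 size factors, total counts only and either prior count, and 9 with the correction. With the correction 7 members were at least 2-fold lower with bleomycin in *Hps1*-/- mice (9.03% of all genes). *Marco* and *Ear2* were gained and *Mrc1* was lost. Without replicates, the spread between mice is not known for any value.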
